A study of Mus musculus with 11 samples.

Results

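The 88 probes described here were detected in nuclear RNA of both HuR WT and HuR KO cells, and were detected after immunoprecipitation (IP) of hnRNP A1 in the cells without HuR but not in those with it. They were chosen by the detection p-values of the table, which holds 45281 probes. The choice required a detection p-value of at most 0.01 on all 5 nuclear RNA arrays and on all 3 HuR KO IP arrays, and one above 0.01 on all 3 HuR WT IP arrays. The detection p-value is the share of an array's negative control probes that were at least as bright as the probe. All values are multiples of 1 part in 936, so that a detected probe had at most 9 such controls above it. The IP arrays of both cell types thus fixed the direction of the difference in the IP, which is given below as a description and without a test. The change in nuclear RNA between HuR KO and HuR WT cells was tested. The choice did not use this change itself, but it did require detection on each nuclear RNA array. This test is not independent of the choice, since the methods took the nuclear RNA from the extracts that went into the IP. Choosing by the IP arrays can thus also favour probes that were high by chance in HuR KO nuclear RNA. Requiring detection in nuclear RNA can favour them as well, since the detection limits of those arrays differed between the cell types, as given below. The size of these effects was not tested.

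The cells were mouse embryonic fibroblasts (MEFs), connective tissue cells grown in culture from mouse embryos, that either carried HuR (HuR WT) or came from HuR knockout embryos (HuR KO). Per the methods, both kinds came from embryos of the same stage and were kept in the same medium, the HuR KO cultures grew more slowly and were plated at higher density, and how many embryos or lines stood behind each kind was not given in the sources used here. Loss of HuR and any other difference between the cultures therefore cannot be told apart. Nuclear RNA was the input of the IP and was measured on 2 arrays for HuR WT and 3 for HuR KO, and RNA from the anti-hnRNP A1 pellets on 3 arrays for each. No array of a control antibody was used here. The labels call the replicates independent experiments and put the missing HuR WT nuclear RNA array down to failed quality control. Since the same mass of RNA was labelled for input and IP, a level is relative to the other RNAs of its sample, and in such bulk samples fewer cells with a transcript and less transcript per cell cannot be told apart.

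HuR, the product of Elavl1, is an RNA-binding protein that recognises AU-rich and U-rich stretches, mainly in 3′ untranslated regions and introns, and is best known for stabilising short-lived mRNAs. Most of it is nuclear in growing cells. HnRNP A1 is an abundant nuclear protein that coats newly made transcripts, takes part in the choice of splice sites and stays with many mRNAs during export. In an RNP immunoprecipitation the transcript recovered depends both on how much of it the input held and on how firmly it was held in the complex, so that the level in the nuclear RNA is the natural companion of each value from the pellet.

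The arrays detected 13737 to 16206 probes each, and the 16045 probes with detection throughout 1 group or more entered the linear model. Across these probes the replicate arrays of HuR WT correlated at 0.972 to 0.992. HuR KO replicate 1 stood apart in both fractions, at 0.926 to 0.942 against 0.989 and 0.995 between replicates 2 and 3, and results that rest on it are given with and without it. The table pairs no probe with a gene, so HuR itself, fibroblast markers and gene groups were not checked, and the members are described as a set, with 4 probe identifiers named. No probe sequence was at hand for the same reason.

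Of the 12475 probes detected on all 5 nuclear RNA arrays, 11504 were also detected on all 3 HuR KO IP arrays. On the HuR WT IP arrays, 11028 of these were detected on all 3, 255 on 2, 133 on 1 and 88 on none. The members are thus the end of a series and no separate class. Seen from the other side, 316 nuclear probes were detected on no HuR WT IP array. Of these, 88 were detected on all 3 HuR KO IP arrays, 76 on 2, 55 on 1 and 97 on none.

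Many members lay near the detection limit. The median detection p-value of the members was 0.0390, 0.0427 and 0.0540 on the 3 HuR WT IP arrays, and in 21 members all 3 of these values were at most 0.05. In 14 members all 3 were above 0.05. On the HuR KO side, 17 members had a detection p-value of 0 on all 3 IP arrays. Just inside the limit stood 14 members whose lowest HuR WT IP p-value was 0.0107, with a median log2 level of 5.33 in the HuR WT IP and 6.37 in the HuR KO IP. Just outside it stood 8 probes with 1 HuR WT IP array at 0.00962, with medians of 5.36 and 6.14. Toward the HuR KO limit, 10 members had an IP p-value of 0.00962 and a median log2 level of 5.68 there, against 5.73 for the 5 probes that missed it at 0.0107.

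The members were weak probes in every group, and clearly weaker in HuR WT nuclear RNA than in HuR KO nuclear RNA. Log2 levels below are background-corrected and quantile-normalized intensities. The median of the 88 probes was 5.89 on both HuR WT nuclear RNA arrays, and 6.65, 6.63 and 6.65 on the HuR KO nuclear RNA arrays. On the HuR WT IP arrays it was 5.15, 5.13 and 5.13, and on the HuR KO IP arrays 6.19, 6.21 and 6.06. Nuclear RNA was therefore the fraction with the higher median in both cell types. For HuR WT the choice favours this order, since it required detection in nuclear RNA and none in the IP. The median of all probes detected on the 5 nuclear RNA arrays was 8.15 in nuclear RNA of either cell type. Of those probes, 6.90% lay below the members' median in HuR WT nuclear RNA and 18.2% below their median in HuR KO nuclear RNA.

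The detection limits of the IP arrays differed between the cell types, in intensity more than after normalization. On the deposited scale the lowest detected intensity was 22.2, 46.8 and 36.5 on the HuR WT IP arrays and 14.7, 17.2 and 18.0 on the HuR KO IP arrays. Mean intensity per array was 212 to 347 in the first group and 165 to 206 in the other. Before normalization, every HuR KO IP intensity exceeded every HuR WT IP intensity in 34 of the 88 members, and in 9 the HuR WT IP had the higher mean intensity. After normalization the limits were at log2 levels of 5.43, 5.67 and 5.60 in the HuR WT IP and 5.46 to 5.47 in the HuR KO IP. All 3 HuR KO IP arrays lay above 5.67, the highest of these limits, in 58 members, and none did in 1 member. On the deposited intensity scale, all 3 lay above the highest HuR WT IP limit in 11 members, and none lay above the lowest in 4. The limits of the nuclear RNA arrays differed too, at log2 levels of 5.18 and 5.28 in HuR WT and 5.59, 5.41 and 5.42 in HuR KO. A weak probe thus had to reach a higher level in HuR KO nuclear RNA to be chosen, which can favour nuclear changes above 0. The part of the unequal limits in the choice of members and in their nuclear change was not tested.

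Nuclear RNA of the members was shifted to higher levels in HuR KO cells. The log2 change from HuR WT to HuR KO had a median of 0.72 over the 88 members, or 1.65-fold, and quartiles of 0.40 and 1.04. Over all 16045 probes in the model the median was 0.01 with quartiles of -0.40 and 0.39, whereas it was 0.05 over the 12475 nuclear probes. The change was above 0 in 85 members (96.6%), against 54.0% of those 12475 probes, which were mostly brighter. Other weak sets also leaned upward. Of the 316 nuclear probes detected on no HuR WT IP array, members included, 83.2% were above 0, with a median of 0.40. The share was 69.1% for nuclear probes on no IP array, and 68% for those detected on all HuR WT but no HuR KO IP arrays. Among the members the largest change was 3.30 and the smallest -0.45.

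In the limma model 24 of the 88 members (27.3%) rose in HuR KO nuclear RNA by more than 2-fold with an adjusted p below 0.05, and 0 fell. Among all probes of the model 5.48% rose and 6.35% fell by this measure, and among those detected on all 5 nuclear RNA arrays 5.12% rose and 3.85% fell. The 24 members had a median log2 change of 1.47 and a range of 1.02 to 3.30. Without the threshold on the fold, 39 members rose and 0 fell, where 9.60% of all probes rose and 9.88% fell. At an unadjusted p under 0.05 the tallies were 57 higher and 0 lower, where 16.5% of all probes were higher and 16.6% lower. The standard error of a member's log2 change had a median of 0.24. The 49 members not called are not shown to be unchanged. Every HuR KO nuclear RNA array lay above both HuR WT arrays in 65 members, and every one below in 1. Such non-overlapping arrays were found for 25.7% of all probes on the higher side and 24.7% on the lower. All 24 called members were among the 65.

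Single arrays mattered for the tally of called members more than for the shift. Without HuR KO nuclear RNA replicate 3, 15 members rose, and so did 15 when the offset was 50. For neither setting is the share of all probes given here. The methods' t-test with adjustment called 4 members higher and 0 lower, where it called 0.910% of all probes higher and 1.28% lower. At its unadjusted threshold it called 21 and 0, where 4.86% and 5.47% of all probes passed. Without both arrays of HuR KO replicate 1, 27 members rose, 85 were still above 0 and the arrays did not overlap in 74. The shares of all probes in this setting are not given here. With fewer HuR KO arrays the groups fail to overlap more readily, so this last count does not compare with that from all arrays. HuR KO replicate 1 departed from the mean of replicates 2 and 3 by over 1 on the log2 scale in 13 members in nuclear RNA and in 6 in the IP. In nuclear RNA it was the higher in 41 members and the lower in 47.

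The largest change in nuclear RNA was at ILMN_1246054. Its log2 levels were 5.19 and 5.29 in HuR WT nuclear RNA, at the detection limits of 5.18 and 5.28 of these arrays, and 9.51, 8.08 and 8.03 in HuR KO nuclear RNA. The IP gave 4.46, 4.69 and 4.47 in HuR WT and 7.71, 7.14 and 7.14 in HuR KO. Both fractions thus went from the detection limit or below to well above it, with HuR KO replicate 1 the highest in each. In nuclear RNA the change was 9.84-fold, a log2 change of 3.30 (SE 0.39, limma adjusted p = 2.14e-04). In the IP it was at least 3.4-fold. This bound compares means of normalized levels and makes no allowance for the spread between arrays. It sets the mean of the HuR KO IP arrays against the mean of a value for each HuR WT IP array. That value is the higher of the probe's own signal and the lowest detected signal, and all bounds below are made in this way. ILMN_1248608 was above the detection limits in HuR WT nuclear RNA, at 5.81 on both arrays. It reached 9.30, 8.75 and 8.46 in HuR KO nuclear RNA. In the IP it went from 4.85, 4.62 and 4.87 to 8.57, 7.76 and 7.64. The groups did not overlap in either fraction. The nuclear change was 8.15-fold, a log2 change of 3.03 (SE 0.30, limma adjusted p = 7.03e-05), and the change in the IP at least 5.38-fold.

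The smallest changes in nuclear RNA were on the lower side in HuR KO, and neither passed the test. ILMN_2573159 had log2 levels of 6.94 and 6.48 in HuR WT nuclear RNA and 6.41, 6.12 and 6.23 in HuR KO nuclear RNA, a log2 change of -0.45 (SE 0.22, limma adjusted p = 0.171). Its IP levels were 4.96, 4.86 and 5.32 in HuR WT and 5.93, 5.77 and 5.57 in HuR KO, and the IP change was at least 1.14-fold. Its deposited IP intensities overlapped, at 11.9, 16.3 and 27.2 in HuR WT and 23.3, 24.0 and 20.2 in HuR KO. It was the member whose nuclear RNA arrays did not overlap on the lower side. ILMN_2600453 had 6.34 and 6.0 in HuR WT and 5.95, 5.84 and 6.15 in HuR KO nuclear RNA, a log2 change of -0.19 (SE 0.22, limma adjusted p = 0.593), and these groups overlapped. Its IP levels were 4.81, 5.38 and 5.16 in HuR WT and 5.54, 5.89 and 5.70 in HuR KO, a change of at least 1.11-fold. Its deposited IP intensities overlapped as well, with 8.68, 35.6 and 22.6 in HuR WT and 15.9, 27.3 and 23.4 in HuR KO. For both probes the IP levels of HuR KO lay within 0.5 log2 units of the detection limit.

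In the IP, the bound, which is a lower limit on the change, was under 2-fold in most members. The bound on the IP change had a median of 0.59 on the log2 scale (0.63 without both arrays of HuR KO replicate 1), or 1.5-fold, and ranged from 0.03 to 3.11, or 1.02-fold to 8.61-fold. The fitted IP change, which uses HuR WT values below the detection limit as measured, had a median of 0.98 and exceeded 2-fold in 43 members. The bound exceeded 2-fold in 19 members. Of these, 14 were among those that rose over 2-fold in nuclear RNA, 3 more passed the nuclear test without the threshold on the fold, and 2 did not pass it. All 4 members with an IP bound over 4-fold rose over 2-fold in nuclear RNA. In 18 members the bound was under 1.2-fold.

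In 52 members the log2 change in nuclear RNA was at least as large as the bound on the change in the IP, and in 36 it was smaller. The bound was within 0.5 log2 units of the nuclear change in 69 members. It was larger by more than that in 4 and smaller by more in 15. The largest excess over the nuclear change was 0.65, for ILMN_2573159, and the largest shortfall 1.53, for ILMN_1246054. Of the 36 members with an excess, which had a median of 0.26, 27 did not pass the nuclear test, 4 passed it without the threshold on the fold and 5 rose over 2-fold. Against the fitted IP change, 15 members had a nuclear change at least as large and 73 a smaller one. The tally thus depends on how far below the detection limit the HuR WT IP is taken to lie. The counts at the bound were 46 without HuR WT nuclear RNA replicate 2, 54 without both arrays of HuR KO replicate 1, and 58 without HuR WT IP replicate 1.

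Members with a larger nuclear change also had a larger IP change. In the 22 members with the smallest nuclear changes (-0.45 to 0.40 on the log2 scale) the IP bound had a median of 1.24-fold and reached 1.87-fold. In the 22 with the largest (1.05 to 3.30) it had a median of 2.46-fold and reached 8.61-fold. The groups of 22 between these had medians of 1.51-fold and 1.5-fold. Across the 88 members the nuclear change and the IP bound correlated at a Pearson's r of 0.79 and a Spearman's rho of 0.59. This is a description across probes, which are not independent replicates. All points share the 11 arrays, and the rule restricts the IP levels. Per the methods, the nuclear RNA was taken from the same extracts that went into the IP.

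Relative to the input, most members were depleted from the IP of both cell types. In HuR KO the log2 level in the IP minus that in nuclear RNA was below 0 in 71 of the 88 members, and over 2-fold below in 20. Its median was -0.43, against -0.06 for the probes detected on all nuclear RNA arrays, which were mostly brighter. Of those probes 46.8% had a value above 0, as had 17 of the 88 members. The share of those probes over 2-fold below is not given here. Other weak sets had lower medians. Their median levels were close to that of the members in HuR WT nuclear RNA but lower in HuR KO nuclear RNA, at 6.36, 6.05 and 5.95 against 6.64, in the order given next. The median was -0.93 for the 316 nuclear probes on no HuR WT IP array, members included. It was -1.19 for nuclear probes on no IP array and -1.13 for those detected only in the HuR WT IP. Both of these last sets were chosen as undetected in the HuR KO IP. The members were chosen as detected on all HuR KO IP arrays, which the rest of the 316 were not. The choice thus favours the higher median of the members against all of these sets. The highest enrichment of a member in HuR KO was 1.49-fold. In HuR WT all 88 had a fitted value below 0, a direction that the choice of probes favours. In 20 members the HuR WT nuclear RNA level itself was at or under the level taken as the limit of the HuR WT IP, so that no depletion could be stated for them, and 9 of these rose over 2-fold in HuR KO nuclear RNA. The other 68 were depleted at the bound, 6 of them over 2-fold. The difference of the enrichments, HuR KO minus HuR WT on the log2 scale, had a median of -0.10 with the HuR WT IP at its limit and of 0.35 with fitted values, and thus changed sign with the treatment of undetected values. Without both arrays of HuR KO replicate 1 the first of these medians was -0.19, and in the HuR KO IP 72 members were below their nuclear RNA level, 17 of them over 2-fold, with a median of -0.49. The standard error of a member's fitted difference had a median of 0.33.

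The same order was seen over all 316 nuclear probes detected on no HuR WT IP array, the set from which the HuR KO IP arrays picked the members. Of the 36 probes of this set that rose over 2-fold in HuR KO nuclear RNA, 24 were members (66.7%). Of the 27 that passed the test without the fold, 15 were (55.6%). Of the 249 that did not pass it, 49 were (19.7%), and of the 4 that fell, 0 were. Split by the nuclear change into 4 groups of 79 probes, the set held 8, 14, 24 and 42 members from the lowest to the highest group, or 10.1% to 53.2% of the probes. By the level in HuR KO nuclear RNA the groups held 9, 15, 27 and 37. By the level in HuR WT nuclear RNA they held 21, 22, 27 and 18, with no such order. Of the 88 members, 49 thus came from probes without a called change in nuclear RNA.

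Other nuclear probes missed by IP arrays had smaller median changes in nuclear RNA. The 97 nuclear probes undetected on all 6 IP arrays had a median log2 change in nuclear RNA of 0.22, with 2 called higher (2.06%) and 2 lower (2.06%). The 103 nuclear probes with the opposite pattern, detected on all HuR WT and on no HuR KO IP array, had a median of 0.20. Of these, 0 were called higher and 8 lower (7.77%). Among all probes detected on the 5 nuclear RNA arrays, 5.12% were called higher and 3.85% lower, and among all probes of the model 5.48% and 6.35%. Median HuR WT nuclear RNA levels of these sets, 5.84 and 5.75, were close to the 5.91 of the members, while in HuR KO nuclear RNA they were 6.05 and 5.95 against 6.64. Of the 103 probes, which lost detection in the HuR KO IP, 70 had a change above 0 in HuR KO nuclear RNA. These differences between sets were not tested.

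Which probes were chosen depended strongly on the detection limit, while the median change in nuclear RNA was above 0 under every limit tried. With a detection p-value of 0.05 as the limit on all arrays 78 probes were chosen, of which 14 were among the 88. These 78 had a median nuclear change of 0.65, and of the 69 in the model 20 rose over 2-fold and 0 fell. With a limit of 0.001 there were 77 probes, 8 of them among the 88, with a median of 0.91 and 27 that rose. The 14 members with all HuR WT IP p-values above 0.05 had a median of 1.03, and 8 of them rose. Without HuR WT IP replicate 1 the rule chose 185 probes, with a median of 0.60 and 40 that rose. Without both arrays of HuR KO replicate 1 it chose 191, with a median of 0.49 and 29 that rose. In this order of the lists, 29%, 35.1%, 57.1%, 21.6% and 15.2% of their probes in the model rose, and none fell. Among all probes of the model 5.48% rose and 6.35% fell. These lists overlap and share the nuclear RNA arrays, and none is independent of the others.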

How the data were processed

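The arrays were Illumina MouseWG-6 v2 BeadChips hybridised with biotinylated cRNA. For each probe and array the authors deposited a detection p-value beside an intensity that had not been normalized across arrays. Between 31.6% and 36.5% of the intensities of an array are below 0, as after background subtraction. The scanner software was not given in the sources used here. Headed as replicate 1, the detection p-values of HuR KO nuclear RNA replicate 3 were taken by their place beside its signal. Background correction, quantile normalization and log2 transformation, the steps of the methods, were done anew: limma 3.58.1 in R 4.3.3 (statmod 1.5.0 for the random block) with a normal-exponential model from the detection p-values, an offset of 16, quantile normalization over 11 arrays, and log2. The 4 groups were fitted in 1 linear model with moderated variances and Benjamini-Hochberg adjustment over 16045 probes, tested on simulated data. Thresholds were those of the methods, an adjusted p below 0.05 with a change over 2-fold. The offset raises low values, so folds near background are understated. The members and lists were chosen with earlier results of these data known. The rule for naming genes was replaced by the rule set for a table without gene names, the members with the 2 largest and 2 smallest nuclear changes. Gene lists and markers were not used. The number of arrays limits the precision.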

Additional observations from a re-analysis of the deposited data

Results flagged for a closer look

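At ILMN_2573159 the arrays moved in opposite directions in the 2 fractions on the normalized log2 scale. The nuclear RNA arrays of HuR KO all lay below those of HuR WT, with a log2 change of -0.45, whereas the HuR KO IP arrays all lay above the HuR WT IP arrays after normalization. The deposited IP intensities overlapped, at 23.3, 24.0 and 20.2 in HuR KO against 11.9, 16.3 and 27.2 in HuR WT. The difference between the fractions was not tested, since the probe was chosen by its IP arrays. With groups of 2 and 3 arrays single arrays were not tested for standing apart.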

How the results depend on the processing

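The median nuclear change of the members, the median IP bound, the median difference of enrichments and the number of members whose nuclear change reached the IP bound each stayed within 1 SD of the replicates (1.5 times for the number) in all 16 alternatives run for them. Leaving out 1 array at a time gave ranges of 0.69 to 0.73, 0.52 to 0.64, -0.17 to -0.03, and 46 to 58. Among these alternatives the background correction moved the first 2 medians most. The nuclear change was 0.48 with an offset of 50 and 0.91 with no background correction, and the IP bound 0.37 and 0.80. The SDs used were 0.25 for the nuclear change, 0.26 for the IP bound and 0.27 for the difference. Fitted IP values in place of the bound were not among the alternatives and moved the results further. They changed the median IP change from 0.59 to 0.98 and the median difference from -0.10 to 0.35. The number of members went from 52 to 15. Members called higher in HuR KO nuclear RNA numbered 15 to 26 without single arrays, 15 with an offset of 50, 39 with no threshold on the fold and 4 with the methods' t-test. None was called lower in any setting. Shares of all probes are given above only for the main model, for no threshold on the fold and for the methods' t-test. Without single arrays the rule chose 88 to 185 probes, and 14 when not detected meant a p-value above 0.05. The choice without both arrays of HuR KO replicate 1 (191 probes, the 88 among them) and the fixed replicate number were added after the data were seen. Without those arrays 27 members were called. The replicate block gave 25 called members with the number shared by nuclear RNA and IP as a random block and 23 with the number as a fixed term. Same-numbered arrays deviated together at 0.48 to 0.69 in HuR KO and at -0.27 and 0.44 in HuR WT, which does not settle the pairing. The number as a fixed term within each genotype could not be fitted, because it leaves the change between genotypes without an estimate. Low signal over background limits all values in the HuR WT IP.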
